A study of Mus musculus with 7 samples.

Results

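The 5937 regions described here are replication origins that were listed only in mouse embryonic stem cells (mESCs) with induced CDC6, that lay away from the ends of genes, and that nevertheless coincided with a peak of nascent DNA in untreated cells. They were chosen by merging the deposited origin lists of 3 conditions (WT, APH and CDC6) wherever origins overlapped by at least 1 bp. Of the 46639 merged regions on the autosomes and X, 9396 held a row of the CDC6 list alone, and 7814 of these lay more than 1 kb from both ends of every protein-coding gene. The 5937 members are those that also overlapped a MACS peak from 1 or both WT libraries, which is 63.2% of the CDC6-only regions and 12.7% of all merged regions. Each member was 1 CDC6 origin, and together they covered 4.10 Mb. The CDC6 list, the absence from the WT and APH lists and the WT peaks chose the members, so presence of CDC6 and WT peaks and listing are given as description, without a test.

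Origins were mapped by sequencing short nascent strands, the young DNA pieces that start with an RNA primer and therefore survive λ-exonuclease. The 6 libraries form 3 conditions of 2 libraries each. WT cells were untreated, APH cells had 0.5 µM of the DNA polymerase inhibitor aphidicolin during 2.5 h, and CDC6 cells had doxycycline at 1 µg/ml during 30 h to overexpress CDC6. Of the 6 libraries, 5 came from TetO-CDC6 mESCs, which carry a doxycycline-inducible CDC6 transgene from the TetO-CDC6 mouse model, so that WT 2 and both APH libraries carry the uninduced transgene. WT 1 came from mESCs labelled WT without that transgene, grown in another medium, and had been submitted earlier. The condition "CDC6" thus differs from WT 2 in doxycycline and transgene induction together, and no library from doxycycline alone was analysed here. Each condition has 1 deposited origin list, and each library 1 list of MACS peaks with the authors' fold over a shared control and q-value. DNA libraries measure neither the level of CDC6 nor marker genes, so induction and cell identity were not checked.

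CDC6 is an ATPase that acts before DNA synthesis begins. The origin recognition complex binds DNA, CDC6 joins it, and together with CDT1 they load the ring-shaped MCM helicase, a step called licensing. Cells load more helicases than they activate, and the unused or dormant origins can fire when forks slow down, as they do with aphidicolin. In mammalian cells, efficient origins are often found at CpG-rich transcription start sites, whereas the origins described here were chosen to lie away from the outer ends of genes.

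Start sites inside genes and of non-coding genes can still fall into these regions. Of the 5937 members, 192 (3.23%, 95% Wilson interval 2.81 to 3.72) held part of a RefSeq start-site window of 300 bases, against a background of 3.09% of all 37412 merged regions away from gene ends. Of these, 126 held part of a protein-coding window and 77 part of a window of a long non-coding RNA (lncRNA). Of the 32619 windows, 109 lay wholly inside a member. The windows inside the members with the strongest CDC6 peaks are shown because they are the only sequences of these regions that could be read here. They come from RefSeq on GRCm38 (mm10), run 5′ to 3′ on the strand of the gene, and have each CG dinucleotide in capitals.
Nup210: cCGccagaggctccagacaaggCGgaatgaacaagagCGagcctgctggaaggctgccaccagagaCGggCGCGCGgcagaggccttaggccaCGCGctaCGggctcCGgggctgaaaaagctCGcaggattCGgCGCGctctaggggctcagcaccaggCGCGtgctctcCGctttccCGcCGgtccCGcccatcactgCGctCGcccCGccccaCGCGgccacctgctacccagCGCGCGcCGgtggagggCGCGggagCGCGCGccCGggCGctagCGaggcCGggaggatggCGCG
9530059O14Rik: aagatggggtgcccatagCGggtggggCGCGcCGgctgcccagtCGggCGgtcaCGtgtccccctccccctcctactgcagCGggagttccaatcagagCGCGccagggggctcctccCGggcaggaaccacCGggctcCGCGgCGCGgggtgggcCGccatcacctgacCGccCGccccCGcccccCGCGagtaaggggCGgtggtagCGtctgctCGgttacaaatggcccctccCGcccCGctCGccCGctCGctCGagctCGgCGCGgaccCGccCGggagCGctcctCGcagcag
Pitpnm2: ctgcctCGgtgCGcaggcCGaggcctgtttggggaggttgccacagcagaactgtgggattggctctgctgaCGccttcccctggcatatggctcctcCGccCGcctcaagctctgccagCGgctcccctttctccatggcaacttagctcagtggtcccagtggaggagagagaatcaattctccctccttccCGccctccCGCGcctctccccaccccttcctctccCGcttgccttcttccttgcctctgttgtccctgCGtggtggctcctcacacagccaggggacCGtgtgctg
Midn: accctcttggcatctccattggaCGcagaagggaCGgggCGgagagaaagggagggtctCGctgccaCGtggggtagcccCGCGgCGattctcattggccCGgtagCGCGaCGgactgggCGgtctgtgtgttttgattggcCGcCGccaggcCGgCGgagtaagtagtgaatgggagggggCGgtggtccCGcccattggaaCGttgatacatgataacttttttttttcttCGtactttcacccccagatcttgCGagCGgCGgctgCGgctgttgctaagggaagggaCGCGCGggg
Gm31623: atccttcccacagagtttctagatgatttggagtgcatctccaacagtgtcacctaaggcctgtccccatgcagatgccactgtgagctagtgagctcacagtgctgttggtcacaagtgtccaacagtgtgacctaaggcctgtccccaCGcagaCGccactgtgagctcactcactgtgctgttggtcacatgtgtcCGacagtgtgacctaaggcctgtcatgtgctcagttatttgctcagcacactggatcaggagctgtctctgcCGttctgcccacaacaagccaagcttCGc
Nek6: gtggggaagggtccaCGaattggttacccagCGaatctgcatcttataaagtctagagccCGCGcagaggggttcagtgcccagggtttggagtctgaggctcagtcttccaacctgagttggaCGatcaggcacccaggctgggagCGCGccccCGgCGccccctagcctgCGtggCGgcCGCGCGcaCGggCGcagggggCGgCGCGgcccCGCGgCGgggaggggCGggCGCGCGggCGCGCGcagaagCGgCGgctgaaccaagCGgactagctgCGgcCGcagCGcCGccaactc

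The Nup210 window (chr6:91116777-91117076, minus strand) holds 41 CG and belongs to a nuclear pore protein gene. Its member (chr6:91116224-91117198) had a fold over the control of 4.43 and 2.35 in WT (library 1, then 2), of 3.08 and 4.36 in APH, against of 4.88 and 4.41 in CDC6. The lncRNA 9530059O14Rik (chr9:122572251-122572550, plus strand) starts with 38 CG, and its member, 174183 bp from the nearest protein-coding gene end, had 4.20 and 2.73 in WT, 2.93 and 3.84 in APH, against 4.26 and 4.33 in CDC6. Both regions had a peak in every library, and WT 1 lay near the CDC6 libraries while WT 2 was the lowest of the 6.

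The window of Nek6, a mitotic kinase gene, holds 36 CG (chr2:38511447-38511746, plus strand), and its member had 3.71 and 3.24 in WT, 2.67 and 3.01 in APH, against 4.05 and 4.19 in CDC6. Here the CDC6 libraries were above the other 4. The window of Midn, which encodes the nuclear protein midnolin, holds 28 CG (chr10:80149432-80149731, plus strand) in a member of 2091 bp with 3.97 and 2.62 in WT, 3.69 and 3.62 in APH, against 3.72 and 3.70 in CDC6. WT 2 alone stood apart there. That of Pitpnm2, a phosphatidylinositol transfer protein gene, holds 13 CG (chr5:124187133-124187432, minus strand) and had 3.51 and 2.23 in WT, 2.30 and 2.78 in APH, against 4.15 and 3.92 in CDC6. The sixth window starts the lncRNA Gm31623 (chr12:3894637-3894936, minus strand) within the body of Dnmt3a, the gene of a de novo DNA methyltransferase. It holds 5 CG. Its member had a peak of 3.84 in WT 1 and of 3.99 and 4.28 in the CDC6 libraries, and none in WT 2 or either APH library.

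Windows met by members were richer in CG than most windows in such places. After leaving out windows within 1 kb of a protein-coding gene end, 237 windows met a member. Their median number of CG was 16, against 4 over all 13634 such windows. Taken apart, 143 protein-coding windows had a median of 19 (7 over all such windows) and 94 lncRNA windows one of 10 (3 over all). The letters GGGCGG or CCGCCC, the core of a GC box and its reverse complement, stood in 54.9% of the windows met by members and in 17.9% of all such windows. This motif contains a CG itself and therefore overlaps with the CG count. A G-quadruplex pattern, 4 runs of at least 3 G with loops of 1 to 7 bases on either strand, was found in 28.7%, against 13.3%. The background mixes the gene types in other shares, with 3633 of 13634 windows protein-coding. By gene type, the GC box stood in 64.3% of protein-coding windows met by members (37.7% over all such windows) and in 40.4% of lncRNA windows (10.7%). For the G-quadruplex pattern these shares were 30.1% (22.5%) and 26.6% (9.93%). In windows met by regions of all 3 lists the pooled values were 26 CG, 73.2% and 46.2% (794 windows), and in the 81 windows met by APH-only regions 7 CG, 42.0% and 46.9%. In the 145 windows met by regions of both stress lists they were 17 CG, 55.9% and 38.6%, and in the 25 met by CDC6-only regions without a WT peak 4 CG, 12% and 4%. The windows met by members thus lay near those of both stress lists for CG and the GC box. For the G-quadruplex pattern they lay below the other 3 classes with a WT peak and above the CDC6-only regions without one. The classes mix the gene types unequally, with 143 of 237 windows protein-coding in members and 26 of 81 in APH-only regions. Among protein-coding windows the pattern stood in 30.1% for members, against 47.6% to 65.4% in the 3 classes. Among lncRNA windows it stood in 26.6%, near the 26.2% of both stress lists and below APH-only regions (38.2%) and all 3 lists (39.4%). Of 1005 microRNA hairpins, 13 lay wholly inside a member, among them that of let-7b on chromosome 15 and that of miR-199a-2 on chromosome 1.

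The members were narrow and of moderate strength. Their width had a median of 644 bp with quartiles at 555 and 768 bp, and ran from 401 to 2413 bp. CDC6-only regions at gene ends with a WT peak (1507 regions, within 1 kb of a gene end) had a median of 702 bp, APH-only regions away from gene ends with a WT peak (6867) one of 547 bp, regions of both stress lists (6997) one of 775 bp and those of all 3 lists (6504) one of 912 bp. Where a member had a MACS peak, the median fold of the strongest was 2.64 and 2.45 for the WT libraries, 2.56 and 2.50 for the APH libraries, and 2.81 and 3.05 for the CDC6 libraries. All 4 libraries without induction thus had lower medians than both CDC6 libraries, which the choice of members favours. The fold is the authors' value per peak and serves here only to describe each library.

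**Figure D1:**
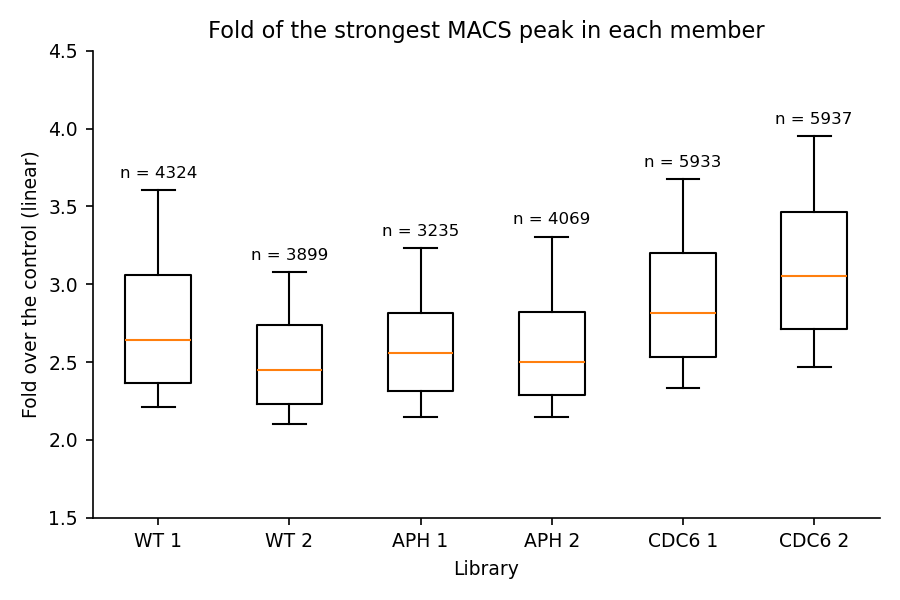
Fold over the control (linear scale) of the strongest MACS peak in each member that had one, for the 6 libraries. Lines are medians, boxes the quartiles and whiskers the 10th and 90th percentiles; the medians run from 2.45 in WT 2 to 3.05 in CDC6 2.

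The WT peaks of the members ranged widely in strength. The stronger WT peak of a member had a median −log10 q of 3.37 and a lowest value of 1.02, just inside the limit of the deposited lists, and 991 members (16.7%) were under 2. At the border of the position rule, the members nearest to a gene end lay 1001 bp from Gm18905 and from Mmp15, and the left-out regions farthest from one lay 996 bp from Nipsnap3a and 995 bp from Fam98c.

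MACS peaks were wider than the origins, and a peak can reach a second region. The median width of the peaks met by members ran from 1187 bp in WT 2 to 1557 bp in WT 1. Of the members with a peak, those whose peaks all also met another merged region were 19.3% and 14.5% for the WT libraries, 19.9% and 19.2% for the APH libraries, and 15.1% and 13.7% for the CDC6 libraries. For 382 members (6.43%), each WT peak also met a region of the WT list, and the WT signal there cannot be told apart from that of a neighbouring WT origin. Of the 6 members with a window shown, that of 9530059O14Rik shared its peaks with another region in WT 1, APH 2 and CDC6 1, and that of Gm31623 in WT 1 and CDC6 1.

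Peaks of the other condition were common in the members although the APH list did not hold them. A peak was present in 3235 members (54.5%) in APH 1 and in 4069 (68.5%) in APH 2, against a background of 83.1% and 85.6% of all regions away from gene ends. Both APH libraries had a peak in 2795 members (47.1%, background 79.7%), exactly 1 in 1714 (28.9%) and neither in 1428 (24.1%). The APH list and these peaks come from the same libraries, so the lower shares follow from the choice of members. Of the 1877 CDC6-only regions away from gene ends without a WT peak, 58.9% had none in either APH library. A peak in the WT libraries, also used by the rule, was present in 4324 members in WT 1 (72.8%, background 69.1%) and 3899 in WT 2 (65.7%, background 77.5%). Both WT libraries had one in 2286 (38.5%, background 57.5%). A peak in every one of the 6 libraries was found in 1431 members (24.1%, background 41.5%), the most frequent pattern. The next was a peak in WT 1 and both CDC6 libraries alone (870 members), followed by a peak in every library except WT 1 (863). CDC6 2 had a peak in each member, and CDC6 1 lacked one in 4.

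**Figure D2:**
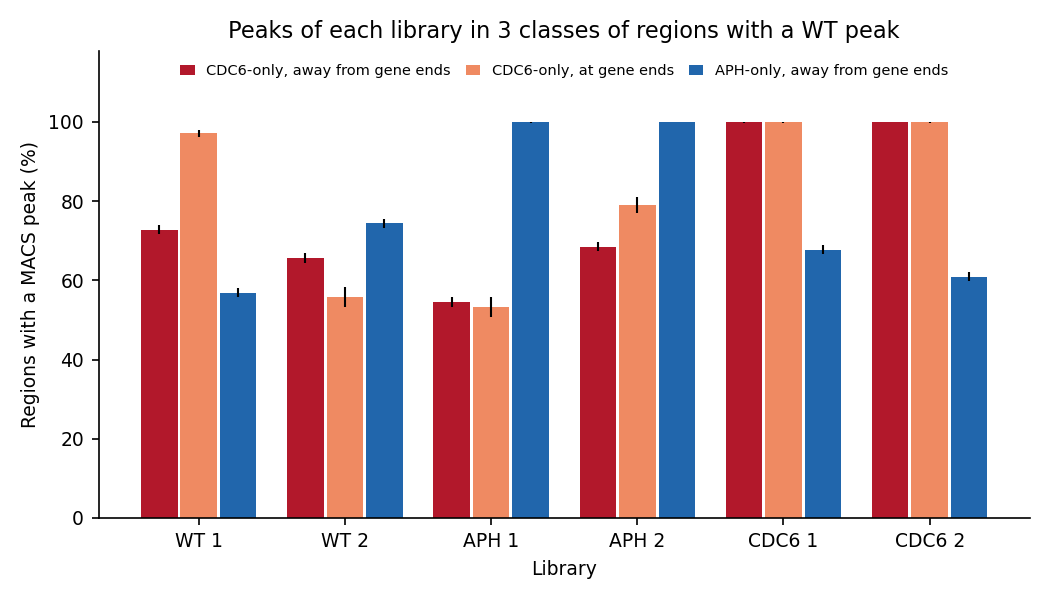
Percent of regions with a MACS peak in each of the 6 libraries, for the 5937 members, 1507 CDC6-only regions at gene ends and 6867 APH-only regions away from gene ends, all with a WT peak; error bars are 95% Wilson intervals, which cover counting error only. Members had an APH peak in 54.5% and 68.5%, and regions at gene ends had a WT 1 peak in 97.1%.

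The 2 WT libraries marked different members. WT 1 alone had a peak in 2038 (34.3%) and WT 2 alone in 1613 (27.2%). Of the members marked by WT 1 alone, 61.8% (95% Wilson interval 59.7 to 63.9) lay in a gene body, against 33.0% (30.8 to 35.4) of those marked by WT 2 alone and 54.2% (52.1 to 56.2) of those marked by both. The median distance to a gene end was 16.6 kb, 79.3 kb and 20.7 kb in the same order. Members marked by WT 1 alone had an APH 1 peak in 29.5%, whereas those marked by WT 2 alone had one in 68.2%. X held 0.932% and chromosome 8 held 8.05% of the members of WT 1 alone, against 4.15% and 2.73% of those of WT 2 alone. Across the 2286 members with both WT peaks, the percentile ranks of the peaks had a Spearman correlation of 0.0079 between the WT libraries, against 0.53 between the CDC6 libraries (5933 members) and 0.39 between the APH libraries (2795 members). These correlations are across regions, which are not independent replicates, and the peaks share 1 control. The rule kept CDC6-listed regions and left out WT- and APH-listed ones, so the correlations cannot be told apart from that choice. WT 1 is the library from the line without the transgene, so cell line, medium and library cannot be told apart here.

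Peak strength was compared with that of CDC6-only regions at gene ends to ask whether CDC6-only regions with a WT peak are weaker away from gene ends. Strength was measured as the percentile, among the peaks of the same library, of the −log10 q of the strongest peak in a region. Regions without a peak in a library were left out of its mean, so the means do not describe the whole classes. They cover 4324 members and 1464 gene-end regions in WT 1, and 3235 and 803 in APH 1. The mean rank of members stood at 53.9 against 71.3 for gene-end regions in WT 1, at 51.0 against 44.3 in WT 2, at 45.6 against 40.6 in APH 1 and at 49.8 against 55.3 in APH 2. In the CDC6 libraries it stood at 64.5 against 72.9 and at 64.8 against 70.3. Members ranked lower in 4 of 6 libraries, including both CDC6 libraries, and higher in WT 2 and APH 1. The mean difference was -4.18 ± 8.94 percentile points (SD, n = 6 libraries), smaller than the spread between libraries. It is given without a test, because the rule used the peaks of the WT and CDC6 libraries. Leaving WT 1 out of the average gave -1.52 points. A peak in WT 1 was found in 72.8% of members and 97.1% of gene-end regions, and a peak in WT 2 in 65.7% and 55.8%. For APH 1 the shares were 54.5% and 53.3%, a difference of 1.20 points (95% Newcombe interval -1.61 to 4.03), and for APH 2 they were 68.5% and 79.1%, a difference of -10.6 points (-12.9 to -8.14). The libraries of 1 condition thus differed in opposite directions in WT, in share and in rank. In APH the rank differences were also opposite, and the share differences had opposite signs, with an interval that includes 0 in APH 1.

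**Figure D3:**
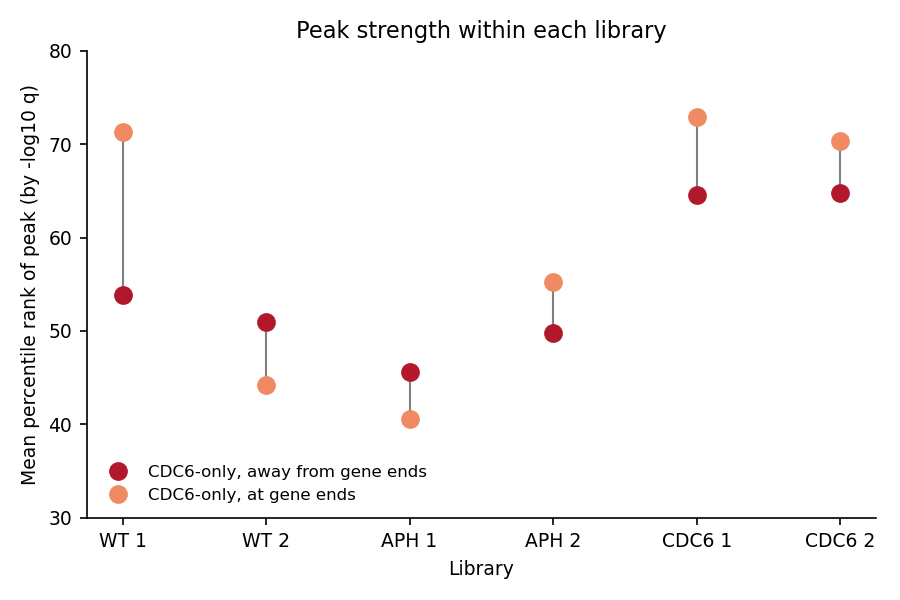
Mean percentile rank (by −log10 q within the library) of the strongest MACS peak in members and in CDC6-only regions at gene ends, for the 6 libraries. Regions without a peak in a library are left out of its mean. Grey lines join the 2 classes. Members lie lower in WT 1, APH 2 and both CDC6 libraries and higher in WT 2 and APH 1.

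The members lay in gene bodies more often than APH-only regions. Of the members, 3031 (51.1%, 95% Wilson interval 49.8 to 52.3) overlapped a protein-coding gene body, against a background of 42.3% of all regions away from gene ends. The share was 37.7% in APH-only regions and 35.2% in regions of both stress lists, all away from gene ends and with a WT peak. In regions of all 3 lists it was 49.4% (48.2 to 50.6), close to that of the members and with an interval that overlaps theirs. The difference between members and APH-only regions was 13.4 points (95% Newcombe interval 11.7 to 15.1) and was positive on 20 of 20 chromosomes. Among regions marked by WT 1 alone it was 14.1 points, among those marked by WT 2 alone 5.17 points (2.38 to 7.99), and among those marked by both 11.2 points. Each condition has 1 list, so these intervals cover counting error only and there is no test over libraries for the difference. CDC6-only regions without a WT peak lay in a gene body in 41.7%, and 10.3% of members lay in a lncRNA gene.

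**Figure D4:**
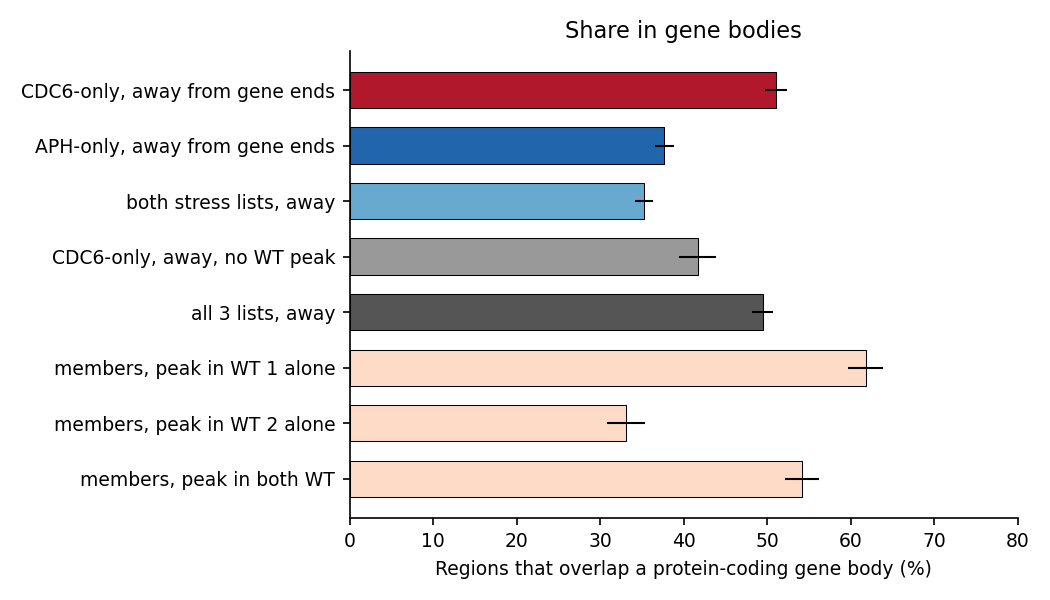
Percent of regions that overlapped a protein-coding gene body, for the members, 4 other classes away from gene ends and the members split by their WT peak; error bars are 95% Wilson intervals, which cover counting error only. The members stand at 51.1% and APH-only regions at 37.7%, and within the members the share runs from 33.0% (WT 2 alone) to 61.8% (WT 1 alone).

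The peaks of the single libraries offered a comparison with 2 libraries per condition, but not an independent one. The origin lists that chose the members and the APH-only regions come from the same libraries, so a gap here does not stand apart from that choice. Of all MACS peaks away from gene ends, 44.3% and 43.2% lay in a gene body in the CDC6 libraries, 36.0% and 38.2% in the APH libraries, and 45.2% and 37.1% in WT 1 and WT 2. The mean was 43.8% ± 0.787 in CDC6 and 37.1% ± 1.59 in APH (SD, n = 2 each). Both CDC6 libraries were above both APH libraries, by 6.65 points on average (exact two-sided permutation p = 0.333 over 6 splits, the smallest that 2 libraries against 2 allow, adjusted p = 0.333 over 2 measures). Over the 20000 strongest peaks of each library the difference was 3.52 points. WT 1 and WT 2 enclosed all 4 of these libraries except APH 1, which was below WT 2.

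Within genes, members were more frequent towards the 3′ end. A strand was known for 17274 of 21631 protein-coding genes (79.9%). In 5 equal parts of these genes from the 5′ end, members numbered 397, 456, 477, 549 and 537, which is 16.4% in the first and 22.2% in the last part. APH-only regions had 18.4% in both the first and the last part, and regions of all 3 lists ran the other way, from 23.7% to 17.1%. Regions of both stress lists had 16.6% in the first part, near the members' share, and 18.8% in the last. A second measure took members 1 to 5 kb from the nearest gene end, inside or outside a gene. Of these 1042, 760 (72.9%) lay inside a gene, and for 815 the strand was known. Of the 815, the nearest end was a 3′ end for 462 and a start for 353 (56.7% at a 3′ end, 95% Wilson interval 53.3 to 60.0). The share was 50.7% (46.6 to 54.7) in APH-only regions, 51.8% (47.3 to 56.2) in regions of both stress lists and 43.5% (40.1 to 46.9) in regions of all 3 lists. For the last part, a measure added after these values were seen, the peaks of single libraries gave 19.1% and 18.9% in CDC6, 17.5% and 18.2% in APH and 19.1% and 16.9% in WT (CDC6 minus APH 1.20 points, exact two-sided permutation p = 0.333, the smallest possible, adjusted p = 0.333). The origin lists that chose the classes come from the same libraries.

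Members were denser in short genes. Per 100 kb of gene body they numbered 0.478 in genes of up to 20 kb, 0.443 from 20 to 50 kb, 0.348 from 50 to 100 kb, 0.288 from 100 to 200 kb, 0.217 from 200 to 500 kb and 0.156 in longer genes, a decrease at each step. APH-only regions went from 0.261 in the shortest to 0.205 in the longest genes, and regions of both stress lists from 0.191 up to 0.275. Regions of all 3 lists also fell at each step, from 0.411 through 0.397, 0.372, 0.311 and 0.252 to 0.196. In genes longer than 500 kb, members were thus the sparsest of these classes, and in the shortest genes the densest.

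**Figure D5:**
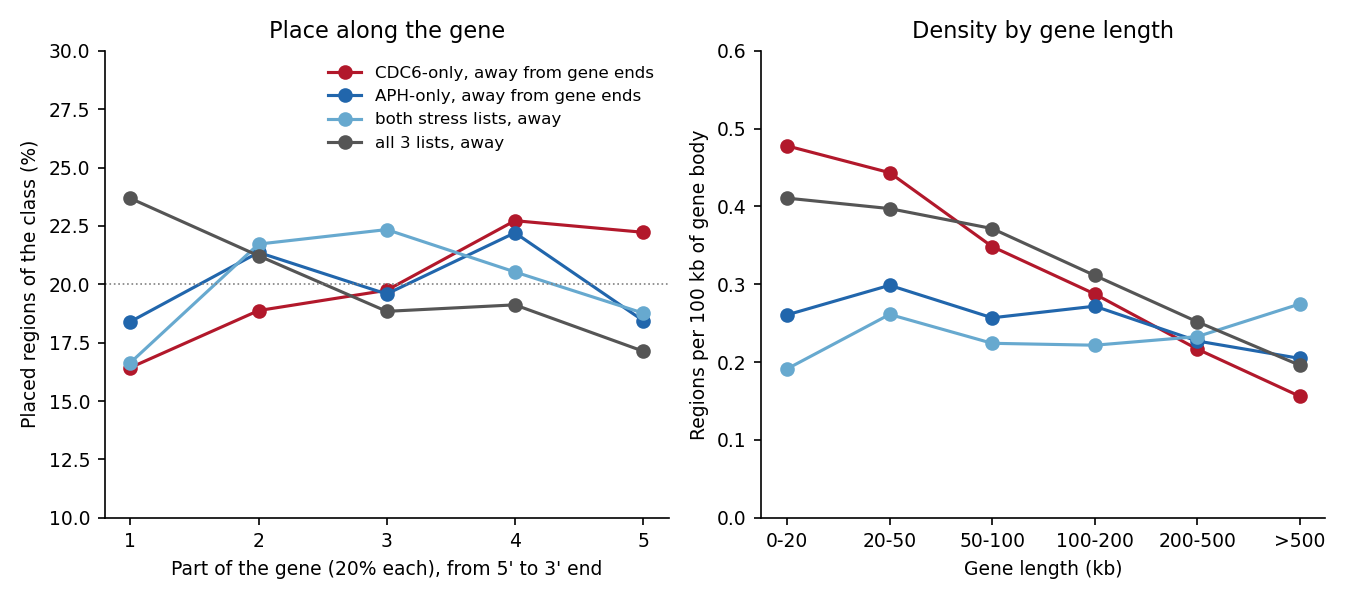
Left, percent of the regions of a class in each of 5 equal parts of the protein-coding gene that holds them, from 5′ to 3′ end (dotted line, an even spread); right, regions per 100 kb of gene body in classes of gene length, with the same colours. Members run from 16.4% in the first to 22.2% in the last part and from 0.478 to 0.156 per 100 kb with increasing gene length.

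Members were also nearer to gene ends and to regions of all 3 lists than APH-only regions. The median distance to a gene end was 26.7 kb, against 42.3 kb for APH-only regions, 62.3 kb for both stress lists and 30.6 kb for all 3 lists. Of the members, 1042 (17.6%) lay 1 to 5 kb from one, against 10.7% of APH-only regions, and 1500 (25.3%) lay over 100 kb from one, against 32.5%. A region of all 3 lists lay within 10 kb of 15.1% of members and 10.1% of APH-only regions, a difference of 5.05 points (95% Newcombe interval 3.90 to 6.21) that was positive on 17 of 20 chromosomes. When regions that share their MACS peaks with another region were left out, an alternative chosen after seeing the data, the shares were 9.39% and 6.90%, and the difference was 2.49 points. X held 119 members (2.00%), against 3.92% of APH-only regions.

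Of the protein-coding genes, 2437 held at least 1 member in their body, which is the background of 11.3% against which gene lists are read, and 472 held at least 2. The gene with the most was Gse1 (chr8:120228501-120581383), which encodes a subunit of histone demethylase and deacetylase corepressor complexes, with 11 members and 2 APH-only regions. By midpoint, its body held 33 and 22 MACS peaks in the WT libraries, 31 and 30 in the APH libraries, and 48 and 45 in the CDC6 libraries, which were above the other 4, as the choice of the gene by its CDC6-only regions favours. Slit3, an axon guidance ligand gene, and Nav2, a neuron navigator gene, held 6 each. Slit3 had 33 peaks in WT 1 against 18 and 22 in the CDC6 libraries, and Nav2 42 against 23 and 29. In both genes WT 1 had the most peaks of the 6 libraries. The ciliary rootlet genes Crocc and Crocc2, the GTPase activator gene Rap1gap, the phosphodiesterase gene Gdpd5, the transcription factor genes Nfix and Rfx4 and the inositol kinase gene Itpk1 held 5 each. In Crocc (43.979 kb) this is 11.4 per 100 kb, against 0.298 over all protein-coding genes. Members of 1 gene can share a peak, so these counts are of listed origins and not of separate peaks. In Crocc2, the members at chr1:93223890-93224838 and chr1:93226529-93227662 had the same folds of 3.01 and 3.11 in the CDC6 libraries. The megabase with the most members was 120 to 121 Mb of chromosome 8, which includes Gse1, with 17, of which 17 had a WT 1 peak and 6 a WT 2 peak. Next was 32 to 33 Mb of chromosome 2 with 15, and 29 bins of 1 Mb with at least 10 members held 338 (5.69%). At least 1 member lay in 2148 of 2641 bins. This count has no share for all merged regions beside it, so evenness of spread was not tested.

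Gene lists of pathways that act in mESCs gave counts of genes with a member in the body, each to be read with gene length. Median gene length was 61.7 kb for TGF-beta, BMP and FGF signalling, 30.98 kb for WNT and 79.7 kb for chromatin regulators. It was 26.6 kb for imprinted genes, 12 kb for developmental transcription factors and 17.3 kb over all protein-coding genes. Of all protein-coding genes of 50 to 100 kb, 19.5% held a member, and of those of 20 to 50 kb 12.3% did. Of 40 TGF-beta, BMP and FGF signalling genes, 13 held a member, among them the ligand gene Bmp4, the receptor gene Acvr2b and the inhibitory Smad6 with 2 each. By midpoint, the body of Bmp4 held 1 peak in each CDC6 library, so its 2 members may share peaks. Of 51 WNT pathway genes, 15 did, with 2 in the co-receptor gene Lrp5 and in the transcription factor genes Tcf7 and Tcf7l1. Per 100 kb these lists had 0.562 and 0.635 members. Of 56 chromatin regulators, 17 held one (0.560 per 100 kb), among them the histone demethylase Kdm4b with 4, and the methyltransferase Kmt2d, the remodeller Chd9 and the remodeller subunit Arid1b with 3 each. Dnmt1, the maintenance DNA methyltransferase, and Tet3, which oxidises methylcytosine, held 2 each, as did Hdac4 and Hdac5. Of 86 developmental transcription factors, 19 did (0.385 per 100 kb), with 3 in Runx3 and Prdm16 and 2 in Sox5. Of 29 imprinted genes, 5 did (0.376), with 3 in the potassium channel gene Kcnq1. APH-only regions numbered 0.141 per 100 kb in TGF-beta, BMP and FGF genes, 0.353 in WNT genes and 0.297 in chromatin regulators. They numbered 0.337 in developmental transcription factors, 0.807 in imprinted genes and 0.25 over all protein-coding genes, against 0.298 members there. Of these lists, the imprinted genes alone had a higher density of APH-only regions than of members.

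The densities of members were lowest in the lists of the replication machinery, of pluripotency genes and of very long genes. Of 42 fragile site and long neuronal genes, with a median length of 1117 kb, 36 held a member, 74 members in all, yet at 0.141 per 100 kb. Of all protein-coding genes over 500 kb, 70.5% held one, at 0.156 per 100 kb, so the density of this list lay near that of its length class. Immp2l held 5, Naaladl2, Macrod2, Cntnap2 and Ptprn2 held 4, and Fhit, a gene at a well-known fragile site, held 3. Of 36 licensing and firing genes, which encode ORC, MCM and their partners, 1 held a member (Tipin, a replication fork protein), and of 27 pluripotency genes 1 did (Esrrb). These last 2 lists have median lengths of 23.0 and 10.6 kb, against 17.3 kb over all protein-coding genes, and their densities of 0.0946 and 0.140 per 100 kb rest on 1 member each. Of all protein-coding genes of up to 20 kb, 3.55% held a member (0.478 per 100 kb), and of those of 20 to 50 kb 12.3% did (0.443 per 100 kb). The share of pluripotency genes with a member (3.70%) was thus near that of genes of up to 20 kb. APH-only regions were denser than members in both lists, at 0.189 per 100 kb in licensing and firing genes and 0.42 in pluripotency genes. In the fragile site and long neuronal genes they were also denser, at 0.1996 per 100 kb. The lists were chosen with results of these data known and were not tested.

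The members with the strongest peaks in both CDC6 libraries were mostly not isolated. Of the 12 ranked highest, 10 lay within 2 kb of a region of all 3 lists, and for 11 the peaks of at least 1 CDC6 library also met another region, so their values cannot be told apart from those of a neighbour. The highest lay near Cntnap5a, a neurexin family gene, at chr1:114185936-114186415 and 1498 kb from a gene end, with no peak in WT 1, a fold of 5.60 in WT 2, 6.04 and 7.79 in APH, against 8.64 and 7.17 in CDC6. The next lay near the protocadherin gene Pcdh8 (chr14:79837359-79837954), with 5.35 and 5.25 in WT, 5.57 and 6.89 in APH, against 9.40 and 5.77 in CDC6. In both, CDC6 1 was the highest library and APH 2 was above CDC6 2. Those near Junb, an AP-1 subunit gene, in Fignl2, in Ankrd52, a regulatory subunit gene of protein phosphatase, and in the MAP kinase phosphatase gene Dusp7 had peaks in every library, with APH 2 from 5.63 to 7.87. In Fignl2 and Dusp7, both APH libraries were above both CDC6 libraries. Those in Agpat2 and Zcchc2 lacked a peak in APH 1, those near Cst3 lacked one in WT 1, and that in Cxxc5 lacked one in WT 2 and APH 1, whereas that near Slc8a1 had one in every library. Of the 12, 7 had a peak in every library, 6 lay in a gene body and 9 had a peak in both APH libraries. By position, 7 lay within 5 kb of a gene end and 5 over 50 kb from one. Those in Ankrd52, Fignl2 and Agpat2 and near Junb lay 1002, 1109, 1153 and 1248 bp from one, just past the 1 kb limit.

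The exception with CDC6 peaks of its own lay 384 kb from the gene end of Nr5a2, which encodes a nuclear receptor active in pluripotent cells, and 395 kb from the nearest region of all 3 lists (chr1:137344628-137345703). Its fold was 4.83 and 3.80 in WT, 4.11 and 5.13 in APH, against 9.11 and 6.47 in CDC6. Both CDC6 libraries were above the other 4, and every library had a peak. The peaks of WT 2 and of both APH libraries there also reached a second member nearby, so those 3 folds belong to both. The next members with their own CDC6 peaks, picked after the overlap was seen, lay near Esp24 (chr17:38890463-38891561), in Cachd1, near the homeobox gene Gbx2 and in Cbfa2t2, a transcriptional corepressor gene. Near Esp24 the folds were 3.91 and 4.23 in WT, 4.52 and 3.35 in APH, against 6.04 and 5.22 in CDC6; the APH 2 peak also met another region. In Cachd1 (chr4:100939794-100940887) they were 2.04 and 2.45 in WT, 2.26 in APH 2 with none in APH 1, and 5.57 and 5.04 in CDC6. Near Gbx2 (chr1:89913827-89914743) they were 2.28 and 2.83 in WT, 2.40 and 2.68 in APH, against 5.58 and 5.24 in CDC6. In Cbfa2t2 (chr2:154501570-154502411) there was a fold of 2.49 in WT 2, 2.90 in APH 2, 5.38 in CDC6 1 and 5.24 in CDC6 2. In each of these 4 the CDC6 libraries were above every other library with a peak, which the choice by CDC6 rank favours.

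Of the 1428 members without an APH peak, those strongest in CDC6 lay near the Fc receptor gene Fcgr1, in the kinase gene Wnk1, in the WNT receptor gene Fzd1, in Bzw1, near Galnt1 and near the Polycomb gene Pcgf5. In Wnk1 (chr6:120033990-120034584) the fold was 4.05 in WT 2, with none in WT 1, and 5.20 and 5.33 in CDC6. In Fzd1 (chr5:4755636-4756128) it was 4.71 in WT 1, with none in WT 2, and 5.18 and 4.92 in CDC6. In Bzw1 it was 4.89 and 4.02 in WT and 5.36 and 5.32 in CDC6, and near Pcgf5 2.92 in WT 2 alone and 4.79 and 4.75 in CDC6. The WT libraries thus disagreed at Wnk1, Fzd1 and Pcgf5, and near Fcgr1, where only WT 1 of the WT libraries had a peak (3.43). Near Galnt1, whose member is within the lncRNA gene Gm38565, it was 2.88 and 2.32 in WT and 5.38 and 6.08 in CDC6. Of these 6, the member near Galnt1 was the 1 with its own peaks in both CDC6 libraries. The WT peaks given for Fcgr1, Wnk1, Fzd1, Bzw1 and Pcgf5 also met another region. Their WT folds, and the disagreement between WT libraries there, thus cannot be told apart from signal of a neighbour. A region of all 3 lists lay from 0.237 kb (Bzw1) to 2.20 kb (Wnk1) from these members. Members with more APH peaks had stronger CDC6 peaks: the mean percentile rank in CDC6 1 was 60.0 with none, 64.2 with 1 and 67.1 with 2, and in CDC6 2 it was 60.1, 64.7 and 67.2.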

How the data were processed

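Short nascent strands of mouse embryonic stem cells were sequenced in 6 libraries. Per the submitters' processing notes, BWA 0.7.10, SAMtools 0.1.19, Picard 1.107, MACS2 2.0.10, FastQC and bedtools 2.23.0 were used, and GRCm38, mm10 and mm9 are named without roles or settings. The deposited MACS lists give for each peak a fold ratio over a control, −log10 p and −log10 q, down to a q-value of 0.1. The deposited condition lists carry 2 scores of unstated meaning, which were not used here. A second deposited list per library has labels that go against the MACS lists and was used, as labelled, in alternatives only. The files give no read depth, so the number of MACS peaks (71435 to 94747 per library) limits the precision.

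From these lists, regions were merged with Python 3.11.15 (numpy 2.4.6, pandas 2.3.3, scipy 1.17.1), which was checked on simulated intervals. Gene positions came from RefSeq on GRCm38.p6, whose table gives no strand; strand came from the start-site windows. Shares carry 95% Wilson intervals and differences Newcombe intervals. Both cover counting error only. Tests are exact permutations over libraries. The labels do not say that the 2 libraries of a condition are separate cultures, so p-values measure the spread between libraries, which may be technical. Members and gene lists were chosen with earlier results of these data known. Named were the 12 members with the highest lower rank of both CDC6 libraries, the 6 highest without an APH peak and the 6 highest with a peak in every library, the 10 genes with most members, list genes with at least 2, and the border members. No genome sequence was used here, so base composition was not measured beyond the start-site windows. Alternatives changed the gene-end window, the WT library, the q limit, the overlap, the strength measure and the peaks used.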

Additional observations from a re-analysis of the deposited data

How the results depend on the processing

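The differences in gene-body share, in nearness to shared origins and in mean rank over libraries kept their sign under every alternative run for them. So did the mean over both APH libraries of the difference in APH peaks to gene-end regions (-4.68 points), although the single libraries had opposite signs (1.20 and -10.6). Number of members: 3899 to 4324 with 1 WT library. Peaks in both APH libraries (47.1%): 36.5% at a q of at most 0.01, 41.6% where a peak had to cover at least 50% of the region, 26.1% with the second lists as labelled, 42.9% for regions whose peaks met no other region (chosen after seeing the data), and 44.7% to 58.9% with 1 WT library. Peaks in both WT libraries (38.5%): 36.8% with a gene-end window of 5 kb, 25.9% at that q, 31.8% with that cover, 6.64% with the second lists, 34.6% without shared peaks, and 52.9% to 58.6% with 1 WT library. Gene-body difference (13.4 points): 10.9 with 5 kb, and 11.2 to 12.7 with 1 WT library. Nearness to regions of all 3 lists (5.05 points): 3.57 with 5 kb, 9.52 within 50 kb, 2.49 without shared peaks, and 4.33 to 4.72 with 1 WT library. Median width (644 bp): 636 bp without shared peaks, and 650 to 652 bp with 1 WT library. The rank difference (-4.18 points) ran from -6.35 without WT 2 to -1.52 without WT 1 in the average, and was -1.93 when ranked by fold. The gene-body difference between CDC6 and APH libraries was 5.53 to 7.77 points without each library in turn. With a replicate block it was 6.65 points (8.33 and 4.97 for the numbers 1 and 2, exact two-sided sign-flip permutation p = 0.5, which is the smallest that 2 pairs allow). The labels do not say that the numbers mark shared cultures. Depth is unknown, so a missing peak does not show missing nascent DNA.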
